A study of Mus musculus with 4 samples.

Results

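The genes described here are 33 genes of glucose uptake, glycolysis, lactate and pyruvate handling and the response to low oxygen. They were chosen by symbol, and all 33 were found among the 54348 gene rows of the table; Aldoa stood on more than 1 row and is represented by the row of highest mean. Expression was measured by RNA-seq in live tdTomato-positive cells sorted from mouse forebrain at postnatal day 4. The 2 control libraries came from PdgfraCreER;AI14 pups and the 2 fusion libraries from PdgfraCreER;MN1:BEND2;AI14 pups. Both genotypes carried PdgfraCreER, a recombinase that is expressed from Pdgfra and needs tamoxifen to act, and AI14, which turns on the red fluorescent tdTomato once recombined. Both groups received tamoxifen by intraperitoneal injection on postnatal days 0 and 1. The fusion pups also carried MN1:BEND2, a fusion gene of astroblastoma, a brain tumour. The sorted cells are therefore any cells in which Pdgfra was active around birth, and the descendants of those cells. Whether the 2 libraries of a group are from different pups is not stated in the labels. The p-values therefore reflect library-to-library spread, which may be technical.

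Glycolysis splits glucose into pyruvate in the cytosol. Hexokinase, phosphofructokinase and pyruvate kinase catalyse its practically irreversible steps. Pyruvate is reduced to lactate by lactate dehydrogenase or enters mitochondria, where the pyruvate dehydrogenase complex turns it into acetyl-CoA. Pyruvate dehydrogenase kinases switch that complex off. In low oxygen the factor HIF-1, whose oxygen-regulated subunit is encoded by Hif1a, escapes hydroxylation by the prolyl hydroxylases encoded by the Egln genes and induces many glycolytic genes together with Vegfa, Bnip3, Ankrd37 and Pdk1. Oligodendrocytes, which descend from Pdgfra-positive precursors, are known to pass lactate to axons through monocarboxylate transporters.

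The libraries of the 2 groups differed in ways that touch every value below. Values are TPM, a unit of relative transcript abundance in which reads are set against transcript length and the total of the library; read depth is therefore unknown. Mitochondrially encoded transcripts took 7.30% to 10.1% of TPM in controls, against 48.7% in fusion replicate 1 and 26.2% in fusion replicate 2. The number of genes at 1 TPM or more was 12772 and 13219 in controls and 9050 and 10017 with the fusion. The median log2 change over the 12871 genes tested was -1.41 (fusion minus control), so changes are also given relative to that median. Y-linked Eif2s3y was at 121 and 122 TPM in controls and listed at 0 in both fusion libraries, so sex and genotype cannot be told apart. Bend2, part of which is in the fusion gene, had 3.82 and 8.72 TPM with the fusion and 0 in each control. The 6 oligodendrocyte precursor markers summed to 723 and 989 TPM in controls and to 260 and 380 TPM with the fusion. Of the 6, 4 were lower, where 51.3% of all tested genes were. The median change of the 6 was -0.24 relative to all genes. In sorted bulk cells, fewer cells of a type and less RNA of a gene per cell cannot be told apart.

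The glycolytic enzymes were lower in the fusion libraries. The 5 tested oxygen sensing and hypoxia-induced genes among the 33 were not called in either direction in the main comparison. Of the 33 genes, 29 reached 1 TPM in at least 2 libraries and were tested, on log2(TPM + 1) with limma and Benjamini-Hochberg adjustment over all genes. Of these, 20 fell, 0 rose and 9 did not pass an adjusted p of 0.05. Over all tested genes 51.3% fell and 4.95% rose. At an unadjusted p under 0.05 the number higher was likewise 0, and no other tool was run. The median change of the 29 genes was -2.53, which is -1.12 relative to all tested genes. The enzymes from hexokinase to pyruvate kinase had a median change of -3.46 (14 tested, 13 lower). The oxygen sensing genes and the hypoxia-induced genes, 5 tested together, gave no call. Both fusion libraries lay below both control libraries for 25 of the 29 genes, where 71.1% of all tested genes did. Both lay above for 2, Hif1a and Vegfa, where 10.2% of all tested genes did. The calls rested on having both control libraries: without control replicate 1, 3 of the 29 genes were lower (Pfkl, Pfkfb3 and Aldoa; 8.59% of all tested genes), and without control replicate 2, 2 were lower (Pfkl and Pfkfb3; 7.96%). Without fusion replicate 1, the library with the larger mitochondrial share, 22 were lower, where 51.9% of all tested genes were.

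**Figure D1:**
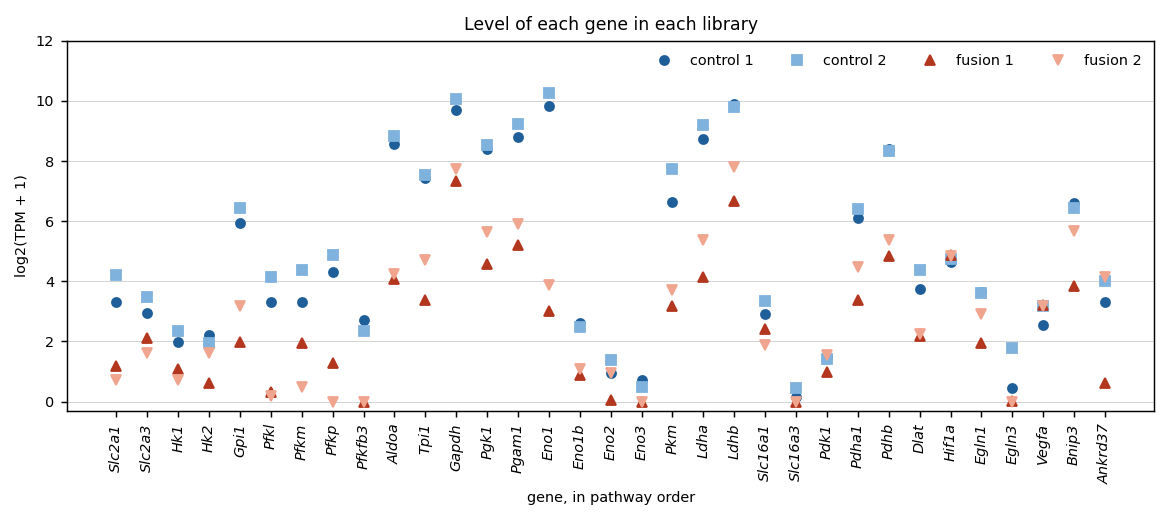
Level of each of the 33 genes in each of the 4 libraries, in pathway order, as log2(TPM + 1); symbols stand for libraries. From Gpi1 to Ldhb most genes show both control libraries well above both fusion libraries, while the symbols of Pdk1, Hif1a and Vegfa lie close together.

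TPM of all genes in a library move together when a few transcripts take a large share, so the comparison was repeated with libraries scaled to a median ratio of 1 to their geometric mean. On that scale 11 of the 29 genes were lower and 2 were higher, where 18.6% of all tested genes were lower and 14.3% were higher. The 9 genes that were lower as deposited but not on that scale were Slc2a1, Hk1, Pfkm, Pfkp, Gapdh, Eno1b, Ldhb, Pdha1 and Dlat. The genes called lower as deposited and under each of the 4 other scalings tried (median ratio, quantile, without mitochondrially encoded and ribosomal protein genes, and corrected for GC content and length) numbered 10. They were Gpi1, Pfkl, Aldoa, Tpi1, Pgk1, Pgam1, Eno1, Pkm, Ldha and Pdhb. How many of all tested genes met the same condition was not counted, so whether 10 is many cannot be said. Hif1a and Vegfa were the 2 genes called higher after median ratio scaling.

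**Figure D2:**
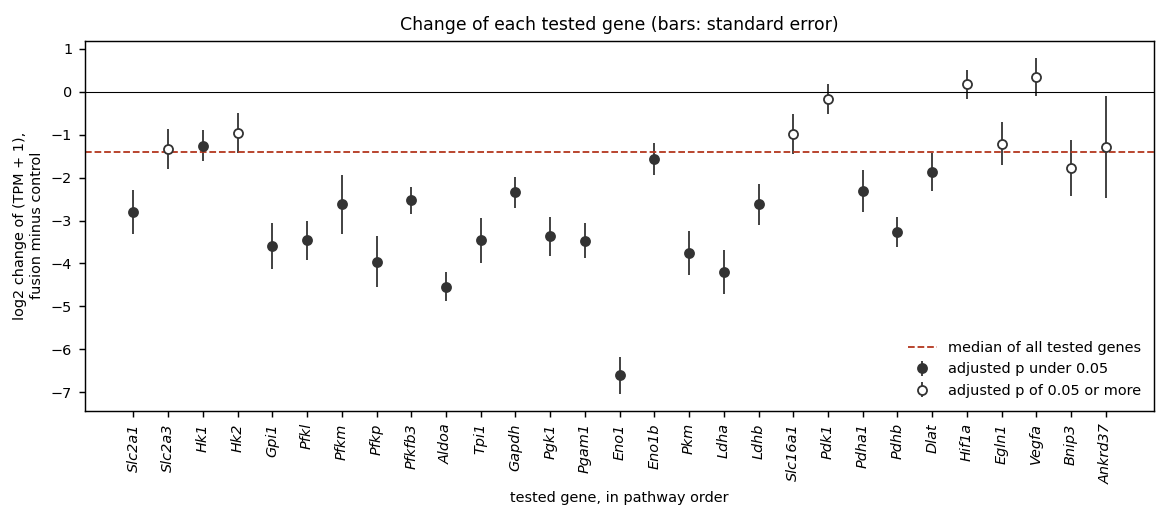
Log2 change (fusion minus control) of each of the 29 tested genes on the log2(TPM + 1) scale, with standard errors; filled points have an adjusted p under 0.05 and the dashed line marks the median of all tested genes, -1.41. Eno1 lies lowest at -6.60, and Hif1a and Vegfa lie highest at 0.17 and 0.34.

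The promoters of these genes were read for the core letters of the hypoxia response element, since HIF-1 is known to act on many of them. The first motif searched was ACGTG, which reads CACGT on the opposite strand. A second motif searched was GCGTG, which reads CACGC on the opposite strand. Both were sought on both strands of the 250 bases before each RefSeq start site on GRCm38.p6. The palindrome CACGTG holds the first motif on both strands. Windows were found for 31 of the 33 genes, 44 windows in all because some genes have several start sites. At least 1 of the motifs was in 34 of the 44 windows (77.3%), against 38.6% of all 32851 windows of that length. ACGTG alone was in 47.7% of these windows and 16.6% of all windows. The windows of these genes were also richer in G and C, with a median of 61.6% against 52.4%. A match is a description of the letters, not a site. Of the 24 tested genes with a motif in at least 1 window, 16 fell (median change -2.58). Of the 3 tested genes without one, Gpi1, Tpi1 and Dlat, 3 fell (median change -3.46). Over all tested genes 51.3% fell (median change -1.41), and 3 genes are too few for a comparison by motif.

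Windows that overlap no GENCODE exon are shown for genes on which the results turn: Eno1, Gapdh, Pgk1, Pgam1 and Ldha among those that fell, and Hif1a and Vegfa among those not called. Each is written 5′ to 3′ on the gene's strand and ends at the base before the start site; capitals mark either motif on either strand.
Eno1 (chr4:150236458-150236707, plus strand): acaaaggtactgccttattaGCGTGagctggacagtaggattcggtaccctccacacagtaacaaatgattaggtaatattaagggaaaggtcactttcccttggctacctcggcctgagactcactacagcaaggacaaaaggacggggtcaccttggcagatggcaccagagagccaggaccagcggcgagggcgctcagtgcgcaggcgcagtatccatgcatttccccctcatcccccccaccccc
Gapdh (chr6:125165774-125166023, minus strand): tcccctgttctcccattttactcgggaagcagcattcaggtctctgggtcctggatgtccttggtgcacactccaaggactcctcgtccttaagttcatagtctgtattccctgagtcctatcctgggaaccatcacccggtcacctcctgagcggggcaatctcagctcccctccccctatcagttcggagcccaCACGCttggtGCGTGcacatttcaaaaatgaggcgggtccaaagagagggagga
Pgk1 (chrX:106186850-106187099, plus strand): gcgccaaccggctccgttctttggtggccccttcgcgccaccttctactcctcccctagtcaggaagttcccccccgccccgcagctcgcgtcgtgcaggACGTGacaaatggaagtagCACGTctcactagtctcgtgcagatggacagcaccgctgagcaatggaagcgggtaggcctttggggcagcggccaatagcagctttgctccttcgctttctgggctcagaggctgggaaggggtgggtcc
Pgam1 (chr19:41911621-41911870, plus strand): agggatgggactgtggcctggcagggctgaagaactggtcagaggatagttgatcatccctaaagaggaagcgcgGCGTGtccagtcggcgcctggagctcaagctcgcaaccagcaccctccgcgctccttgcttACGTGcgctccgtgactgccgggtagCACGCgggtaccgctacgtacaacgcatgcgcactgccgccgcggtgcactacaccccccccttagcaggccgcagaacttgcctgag
Ldha (chr7:46845554-46845803, plus strand): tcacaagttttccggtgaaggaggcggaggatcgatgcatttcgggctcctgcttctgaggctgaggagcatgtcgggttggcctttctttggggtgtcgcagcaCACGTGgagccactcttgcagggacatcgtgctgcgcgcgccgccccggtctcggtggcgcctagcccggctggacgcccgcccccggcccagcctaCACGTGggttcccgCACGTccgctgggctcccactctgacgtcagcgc
Hif1a (chr12:73907617-73907866, plus strand): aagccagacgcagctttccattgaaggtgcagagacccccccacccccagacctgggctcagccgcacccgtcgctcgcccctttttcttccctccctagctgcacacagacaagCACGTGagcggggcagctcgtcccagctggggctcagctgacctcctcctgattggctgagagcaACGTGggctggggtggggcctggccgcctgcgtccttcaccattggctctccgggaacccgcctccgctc
Vegfa (chr17:46032378-46032627, minus strand): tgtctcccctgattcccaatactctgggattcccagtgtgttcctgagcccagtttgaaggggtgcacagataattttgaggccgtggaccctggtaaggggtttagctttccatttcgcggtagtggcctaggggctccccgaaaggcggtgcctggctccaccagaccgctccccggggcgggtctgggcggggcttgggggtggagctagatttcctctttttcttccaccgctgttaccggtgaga
The palindrome CACGTG occurs in the Ldha window 2 times and in the Hif1a window 1 time, the Pgk1 window holds ACGTG once on each strand, and the Vegfa window shown holds neither motif. Eno1 and Vegfa, which lay at opposite ends of the changes, thus have 1 match and 0 matches in the windows shown; other start sites of both genes do hold matches.

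Glucose uptake genes came first in the pathway. Slc2a1, for the transporter GLUT1, was at 8.97 and 17.4 TPM in controls against 1.27 and 0.658 TPM with the fusion. It fell (log2 change -2.80 ± 0.51, SE; adjusted p = 0.00878, limma), and the groups did not overlap. Slc2a3, for the high-affinity transporter GLUT3 known from neurons, was at 6.67 and 10.0 TPM in controls against 3.32 and 2.06 TPM with the fusion. Its change of -1.34 ± 0.47 (SE, adjusted p = 0.0570, limma) did not pass and lay 0.07 above the median of all genes; it turned to 0.12 with median ratio scaling and to 0.15 with quantile normalization. Within each library the make-up of the pair differed, a comparison that does not depend on the library's scale. Slc2a1 made up 57.4% and 63.4% of their summed TPM in controls and 27.6% and 24.2% with the fusion. The fusion shares rest on values of 0.658 to 3.32 TPM. With the GC and length correction the changes were -0.96 for Slc2a1 (adjusted p = 0.201, limma) and -0.30 for Slc2a3. The exact permutation test of 2 against 2 libraries cannot go below p = 0.333, here and for each share below.

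Hexokinase genes were low in every library. Hk1, for the housekeeping form of the enzyme that phosphorylates glucose, was at 2.93 and 4.10 TPM in controls against 1.14 and 0.642 TPM with the fusion. It fell by 1.25 ± 0.37 on the log2 scale (SE, adjusted p = 0.0350, limma), a fall that turned to 0.10 with quantile normalization and to 0.20 with the GC and length correction. Hk2, for the inducible form, was at 3.69 and 2.83 TPM in controls against 0.548 and 2.03 TPM with the fusion (adjusted p = 0.126, limma). The fusion libraries differed from each other in the make-up of this pair: Hk1 was 67.5% of the sum in fusion replicate 1 and 24.0% in fusion replicate 2, against 44.2% and 59.2% in controls. Gpi1, for phosphoglucose isomerase (chromosome 7, 34201330 to 34230336, GRCm38), was at 59.7 and 86.3 TPM in controls against 2.99 and 8.12 TPM with the fusion. It fell by 3.59 ± 0.53 (SE, adjusted p = 0.00564, limma), or to -2.19 relative to all genes.

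All 3 phosphofructokinase genes fell, by different amounts. Pfkl, the liver-type subunit (chromosome 10, 77986947 to 78010083), was at 9.03 and 16.5 TPM in controls against 0.261 and 0.146 TPM with the fusion (log2 change -3.46 ± 0.46, SE, adjusted p = 0.00451, limma). Pfkp, the platelet-type subunit (chromosome 13, 6579768 to 6648777), was at 18.7 and 28.7 TPM in controls, at 1.42 TPM in fusion replicate 1 and listed at 0 in fusion replicate 2 (-3.96 ± 0.60, SE, adjusted p = 0.00580, limma). Pfkp shares transcript sequence with its neighbour Pitrm1, at 21.9 and 31.1 TPM in controls and 4.77 and 4.40 TPM with the fusion, so how common reads were divided is uncertain. Pfkm, the muscle-type subunit, was at 9.02 and 19.5 TPM in controls against 2.84 and 0.407 TPM with the fusion (-2.63 ± 0.69, SE, adjusted p = 0.0247, limma). Pfkm made up 24.5% and 30.2% of the summed TPM of the 3 genes in the control libraries and 62.8% and 73.6% with the fusion. Pfkp made up 50.9% and 44.3% in controls and 31.4% and 0% with the fusion, so the most abundant subunit gene was Pfkp in both control libraries and Pfkm in both fusion libraries. Fusion values of 0 to 2.84 TPM lie behind these shares, and their depth is unknown. Pfkfb3, for the enzyme that makes the activator fructose-2,6-bisphosphate, was at 5.55 and 4.09 TPM in controls and listed at 0 in both fusion libraries (adjusted p = 0.00403, limma). The size of its change depends on the pseudocount, -0.97 with 5 and -5.60 with 0.1, and with the GC and length correction it was -0.82 and did not pass (adjusted p = 0.165). Its change was -2.35 without control replicate 1 and -2.71 without control replicate 2. In those fits the only spread is between the 2 fusion values, both 0, so a call there says little.

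The enzymes from aldolase onward held most of the transcripts. Aldoa, for the main aldolase outside the liver (chromosome 7, 126795234 to 126800751), was at 380 and 456 TPM in controls against 15.8 and 18.1 TPM with the fusion. It fell by 4.54 ± 0.33 (SE, adjusted p = 0.00367, limma), and its change lay between -4.67 and -2.51 over all settings tried. Tpi1, for triose phosphate isomerase (chromosome 6, 124810586 to 124814296), was at 172 and 186 TPM in controls against 9.32 and 24.9 TPM with the fusion, a change of -3.46 ± 0.52 (SE, adjusted p = 0.00581, limma). Gapdh (chromosome 6, 125161715 to 125166467), for glyceraldehyde phosphate dehydrogenase and often used as a reference transcript, was at 827 and 1064 TPM in controls against 161 and 211 TPM with the fusion. Its change of -2.34 ± 0.36 (SE, adjusted p = 0.00596, limma) was smaller than those of Tpi1 and Pgk1, a difference that was not tested, and with median ratio scaling it changed by -0.57 (adjusted p = 0.134). Gapdh has 90 near copies among annotated genes, defined as at least 300 aligned bases at 95% identity. Their summed level was 37.8 and 77.3 TPM in controls and 1.66 and 2.76 TPM with the fusion. Pgk1, for phosphoglycerate kinase on the X chromosome (106187100 to 106203699), was at 339 and 373 TPM in controls against 23.1 and 49.0 TPM with the fusion, a change of -3.36 ± 0.45 (SE, adjusted p = 0.00468, limma). Pgam1, for phosphoglycerate mutase (chromosome 19, 41911923 to 41918660), was at 442 and 604 TPM in controls against 35.9 and 58.6 TPM with the fusion, a change of -3.47 ± 0.40 (SE, adjusted p = 0.00384, limma). For Pgk1, which is X-linked, sex and genotype cannot be told apart. Each of these genes had both fusion libraries below both control libraries.

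Eno1, for the ubiquitous enolase (chromosome 4, 150236721 to 150248879), had the largest change of the 29 tested genes. It was at 914 and 1226 TPM in controls against 7.11 and 13.6 TPM with the fusion. It fell by 6.60 ± 0.43 (SE, adjusted p = 0.00367, limma). Its fall was of rank 6 among the 12871 tested genes and its change ranged from -7.03 to -4.90 over all settings tried. The ratio of Eno1 to Gapdh within a library, which a common scale cannot move, was 1.11 and 1.15 in controls and 0.0441 and 0.0645 with the fusion. Eno1 has 4 near copies among annotated genes, Eno1b the highest, and their summed level was 5.59 and 4.99 TPM in controls and 0.865 and 1.12 TPM with the fusion. Eno1b itself was at 5.11 and 4.58 TPM in controls against 0.865 and 1.09 TPM with the fusion. It fell by 1.56 ± 0.37 (SE, adjusted p = 0.0179, limma) but the change was 0.28 once GC content and length were corrected for, and its reads cannot be separated from those of Eno1 with certainty. Eno2, the neuronal enolase, was at 0.945 and 1.61 TPM in controls against 0.0414 and 0.941 TPM with the fusion and was not tested. Eno3, the muscle enolase, was at 0.642 and 0.397 TPM in controls and listed at 0 in both fusion libraries, also not tested. Pkm, for pyruvate kinase (chromosome 9, 59656368 to 59679375), was at 98.7 and 214 TPM in controls against 8.0005 and 12.1 TPM with the fusion, a change of -3.75 ± 0.51 (SE, adjusted p = 0.00466, limma). The table gives genes, so the M1 and M2 splice forms of Pkm were not resolved.

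**Figure D3:**
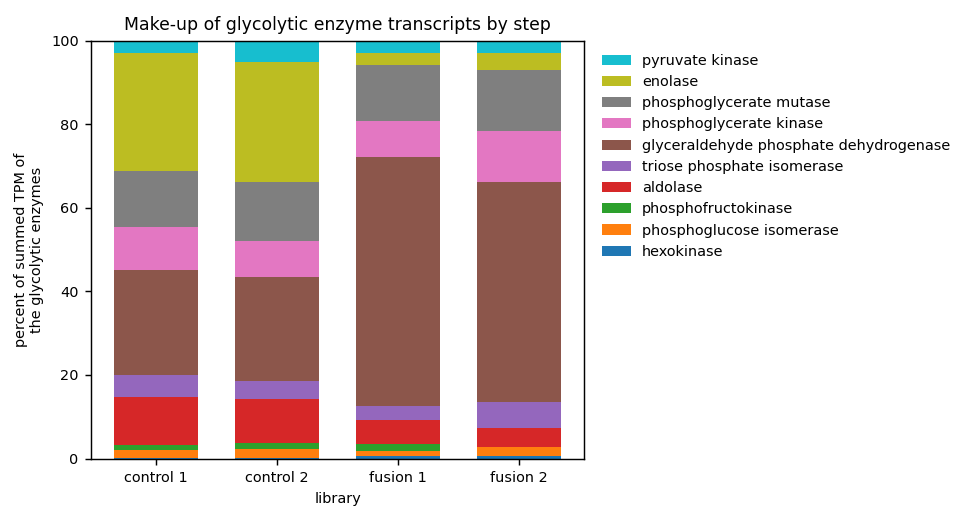
Share of each glycolytic step, from hexokinase to pyruvate kinase, in the summed TPM of those enzymes within each library; each bar is 1 library and adds up to the whole. The enolase share is 28.1% and 28.7% in controls and 2.96% and 3.90% with the fusion, and the Gapdh share is 25.2% and 24.8% against 59.6% and 52.7%.

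Summed over the 16 enzyme genes from hexokinase to pyruvate kinase, the level was 3282 and 4289 TPM in controls and 271 and 401 TPM with the fusion. The make-up of that sum does not move with the library's scale. In the control libraries enolase took 28.4% ± 0.483 and Gapdh 25.01% ± 0.274 (SD, n = 2). In the fusion libraries enolase took 3.43% ± 0.667 and Gapdh 56.1% ± 4.87 (SD, n = 2). Aldolase took 11.6% and 10.6% in controls and 5.85% and 4.52% with the fusion. Phosphoglycerate mutase differed little between the groups, at 13.5% and 14.1% in controls and 13.3% and 14.6% with the fusion, and those ranges overlap. Triose phosphate isomerase and phosphoglycerate kinase also overlapped between the groups. The make-up thus differed along the pathway: enolase and aldolase had smaller shares, and Gapdh and hexokinase larger ones, in both fusion libraries. The hexokinase share was small, at 0.202% and 0.161% in controls and 0.624% and 0.667% with the fusion.

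Both lactate dehydrogenase genes fell, and Ldha took a smaller share of the pair in the fusion libraries. Ldha, for the muscle-type subunit and a known HIF-1 target (chromosome 7, 46841475 to 46855627), was at 420 and 591 TPM in controls against 16.7 and 40.6 TPM with the fusion. It fell by 4.20 ± 0.52 (SE, adjusted p = 0.00403, limma). Ldhb, for the heart-type subunit, was at 950 and 894 TPM in controls against 100 and 221 TPM with the fusion. Its change was -2.62 ± 0.47 (SE, adjusted p = 0.00863, limma), and -0.86 with median ratio scaling (adjusted p = 0.0929). Within a library, Ldha made up 30.6% and 39.8% of the summed TPM of the pair in the control libraries and 14.3% and 15.5% with the fusion. The groups did not overlap in this share. Slc16a1, for the monocarboxylate transporter MCT1, was at 6.53 and 9.24 TPM in controls against 4.36 and 2.65 TPM with the fusion. Its change of -0.99 ± 0.47 (SE, adjusted p = 0.123, limma) did not pass and turned to 0.50 with median ratio scaling and 0.52 with quantile normalization. Slc16a3, for the lactate exporter MCT4, was at 0.116 and 0.381 TPM in controls and listed at 0 in both fusion libraries; it was not tested.

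**Figure D4:**
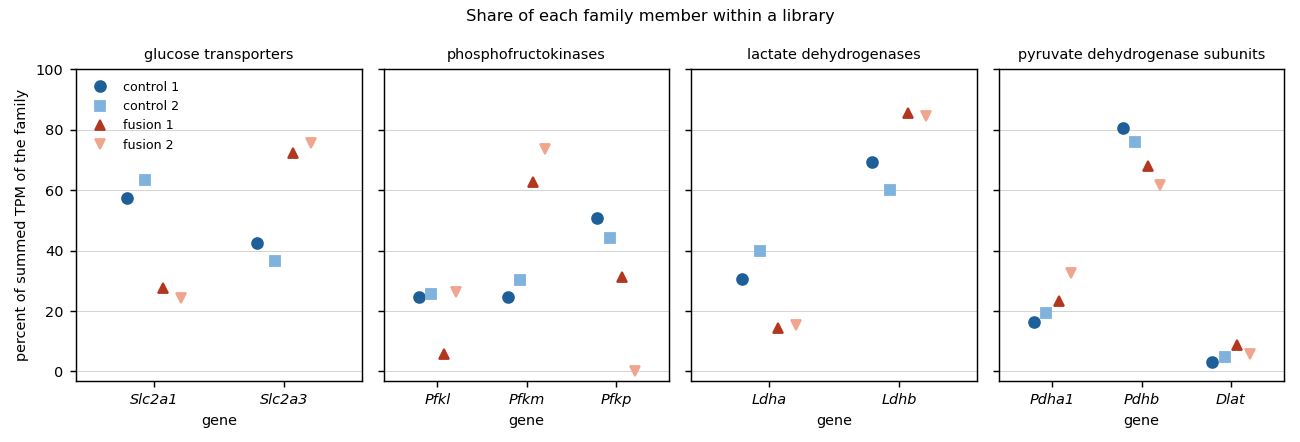
Share of each gene in the summed TPM of its family within each library, for glucose transporters, phosphofructokinases, lactate dehydrogenases and pyruvate dehydrogenase subunits; symbols stand for libraries. Slc2a1 and Ldha have smaller shares in both fusion libraries than in both control libraries, and Slc2a3, Pfkm and Ldhb have larger ones.

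The subunits of the pyruvate dehydrogenase complex fell, and the kinase gene Pdk1 was not called. Pdha1, for the catalytic alpha subunit and also X-linked, was at 68.1 and 83.1 TPM in controls against 9.42 and 21.5 TPM with the fusion (-2.32 ± 0.49, SE, adjusted p = 0.0133, limma). Pdhb, for the beta subunit, was at 337 and 325 TPM in controls against 27.6 and 40.7 TPM with the fusion (-3.26 ± 0.36, SE, adjusted p = 0.00384, limma). Dlat, for the acetyltransferase core, was at 12.5 and 20.0 TPM in controls against 3.48 and 3.71 TPM with the fusion (-1.87 ± 0.45, SE, adjusted p = 0.0190, limma). Pdhb was 80.7% and 75.9% of the summed TPM of the 3 subunit genes in the control and 68.2% and 61.8% with the fusion. Pdha1 was 16.3% and 19.4% of that sum in the control and 23.2% and 32.6% with the fusion. Pdk1, for a kinase that inactivates the complex and a HIF-1 target, was at 1.802 and 1.64 TPM in controls against 1.00 and 1.95 TPM with the fusion, and the groups overlapped. Its change of -0.16 ± 0.35 (SE, adjusted p = 0.710, limma) lay 1.24 above the median of all genes. It turned to 0.88 with median ratio scaling and was called higher with quantile normalization (1.16, adjusted p = 0.0463) and with the GC and length correction (1.20, adjusted p = 0.0484). The ratio of Pdk1 to Pdha1 within a library was 0.0265 and 0.0197 in controls and 0.106 and 0.0907 with the fusion.

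Hif1a, for the oxygen-regulated subunit of HIF-1 (chromosome 12, 73901375 to 73947530), was one of the 10.2% of tested genes with both fusion libraries above both control libraries. It was at 24.0 and 25.7 TPM in controls against 28.6 and 27.6 TPM with the fusion, a change of 0.17 ± 0.34 (SE, adjusted p = 0.694, limma). That lies 1.58 above the median of all tested genes, above 85.7% of them. With median ratio scaling Hif1a was called higher, by 1.87 ± 0.35 (SE, adjusted p = 0.0207), as it was with quantile normalization (adjusted p = 0.0173) and the GC and length correction (adjusted p = 0.0403). HIF-1 activity is set mainly by the stability of its protein, which these data do not measure. Egln1, for the main prolyl hydroxylase that marks it for destruction, was at 11.6 and 11.3 TPM in controls against 2.84 and 6.52 TPM with the fusion. Its change of -1.21 ± 0.50 (SE, adjusted p = 0.0898, limma) did not pass and turned to 0.31 with median ratio scaling. Egln3, for an inducible prolyl hydroxylase, was at 0.360 and 2.46 TPM in controls, at 0.0147 TPM in fusion replicate 1 and listed at 0 in fusion replicate 2, and was not tested.

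None of the 3 hypoxia-induced genes was called in the main comparison, and their fusion levels had different patterns. Vegfa, for the endothelial growth factor (chromosome 17, 46016993 to 46032369), was at 4.79 and 8.08 TPM in controls against 8.31 and 8.11 TPM with the fusion. The lower fusion value lies just above the higher control value, and the change of 0.34 ± 0.45 (SE, adjusted p = 0.540, limma) did not pass; relative to all genes it was 1.75, and without control replicate 1 it was 0.02. With median ratio scaling Vegfa was called higher, by 1.88 ± 0.44 (SE, adjusted p = 0.0345). Bnip3, for a mitochondrial protein that drives mitophagy, was at 96.1 and 85.9 TPM in controls, at 13.2 TPM in fusion replicate 1 and at 49.5 TPM in fusion replicate 2 (-1.78 ± 0.65, SE, adjusted p = 0.0656, limma). With all 4 libraries it was called lower with a pseudocount of 5 (adjusted p = 0.0497, limma). The same held with the replicate number as a block (adjusted p = 0.0272, limma). Bnip3 changed by -0.86 without fusion replicate 1 and by -2.69 without fusion replicate 2. Each of those fits holds 1 fusion library and cannot measure the spread between 13.2 and 49.5 TPM. The summed level of its 5 near copies, Gm45507 the highest, was 0.278 and 0.376 TPM in controls and 7.89 and 1.07 TPM with the fusion. Ankrd37, for an ankyrin repeat protein, was at 9.02 and 15.2 TPM in controls, at 0.531 TPM in fusion replicate 1 and at 16.7 TPM in fusion replicate 2. The fusion libraries thus bracketed the control libraries for Ankrd37, and its change was -1.29 ± 1.18 (SE, adjusted p = 0.388, limma). That change turned to 0.48 without fusion replicate 1 and was -3.06 without fusion replicate 2. For Bnip3 and Ankrd37, fusion replicate 1, which has the larger mitochondrial share, was the lower library; the part of that share in the values was not tested.

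**Figure D5:**
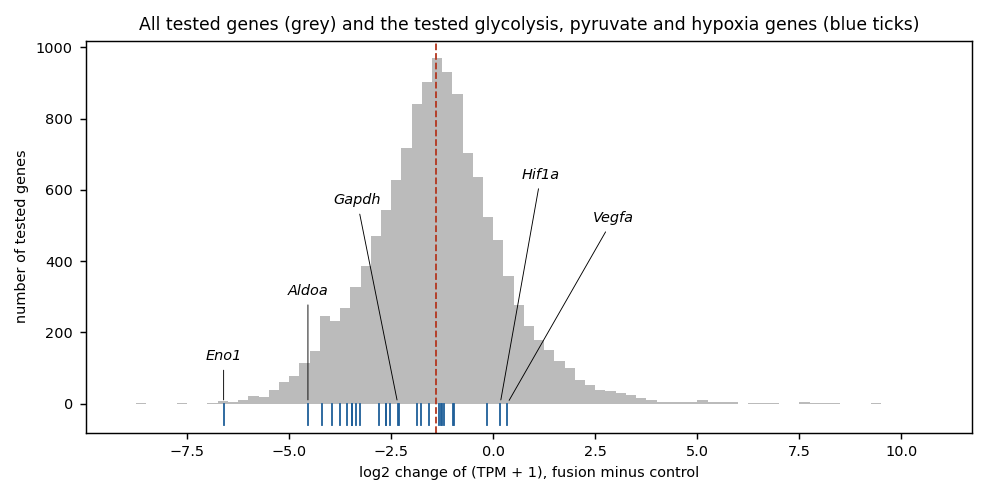
Histogram of the log2 changes (fusion minus control) of all 12871 tested genes in bins on the x axis, with the number of genes on the y axis; blue ticks below mark the 29 genes described here and the dashed line the median, -1.41. Eno1 and Aldoa lie in the left tail, and Hif1a and Vegfa lie to the right of the median.

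Other genes of these pathways were read from lists that do not include the 33. As deposited 51.3% of all tested genes fell and 4.95% rose, and after median ratio scaling 18.6% were lower and 14.3% higher. Of 13 other glycolysis genes tested, 10 fell and 0 rose (median -1.80, or -0.39 relative to all genes). Bpgm, for bisphosphoglycerate mutase, fell from 207 ± 39.2 to 5.66 ± 2.44 TPM (SD, n = 2; adjusted p = 0.00367, limma). Bsg, for basigin, the chaperone of the monocarboxylate transporters, fell from 579 ± 71.8 to 22.9 ± 7.88 TPM (SD, n = 2, adjusted p = 0.00367, limma). Its client Slc16a1 did not pass, and the difference between them was not tested. Pgm1 and Fbp1, for phosphoglucomutase and fructose bisphosphatase, changed by -4.23 and -3.75. Of 6 pentose phosphate genes, 5 fell (median -2.85), among them Taldo1, Tkt, G6pdx and Pgd with log2 changes of -4.53, -3.95, -3.45 and -2.24. G6pdx, for the enzyme that commits glucose to that pathway, is X-linked. Of 16 citric acid cycle genes, 14 fell (median -2.44), among them Mdh2, Idh3g, Sdhc and Idh3a with log2 changes of -4.18, -3.97, -3.95 and -3.88. After median ratio scaling the counts that were lower were 7 of 13, 3 of 6 and 5 of 16, and none of these genes was higher. Without control replicate 1 the medians of the glycolysis, pentose phosphate and citric acid cycle lists were -1.57, -3.32 and -2.46. Without control replicate 2 they were -2.02, -2.38 and -2.43. On all 6 lists of other pathway genes 70 distinct genes were tested, and 44 were lower as deposited. Pfkfb4 is on 2 of the lists and is counted once here.

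Genes of pyruvate entry and of the oxygen response were read in the same way, beside the same shares of all tested genes. Those were 51.3% lower and 4.95% higher as deposited, and 18.6% lower and 14.3% higher after median ratio scaling. Of 8 other genes of pyruvate entry and dehydrogenase control, 3 fell and 0 rose (median -1.17, or 0.24 relative to all genes). Pdk2, for another pyruvate dehydrogenase kinase, fell from 17.3 ± 2.00 to 0.0924 ± 0.0319 TPM (SD, n = 2; adjusted p = 0.00371, limma), while Pdk1 was not called; the difference between the kinases was not tested. Pdhx fell by 3.10, and Dld fell by 1.81 but turned to 0.01 with quantile normalization. After median ratio scaling 2 of the 8 were lower and 2 were higher. Of 11 other oxygen sensing genes, 6 fell and 2 rose as deposited, while 1 was lower and 4 were higher after median ratio scaling, so the balance of calls turned with the scaling. Cul2 and Vhl, for parts of the ligase that degrades the HIF-1 subunit, fell (changes of -3.64 and -1.96), and the hydroxylase genes Hif1an and Egln2 fell too (changes of -2.23 and -1.85); of these, Cul2 alone was called lower after median ratio scaling. The 2 that rose, named after their values were seen, were Cited2, for a HIF-induced inhibitor of HIF-1 (1.04 ± 0.541 to 5.85 ± 0.900 TPM, SD, n = 2; adjusted p = 0.0184, limma), and Eloc, for elongin C of the same ligase (368 ± 39.6 to 843 ± 266 TPM; adjusted p = 0.04996, limma). Eloc was just inside the threshold and did not pass with a pseudocount of 0.1 (adjusted p = 0.0609). Of 17 other hypoxia-induced genes tested, 7 fell, 0 rose and 10 did not pass, where 51.3% of all tested genes fell. The median of the 17 was -1.04, or 0.36 relative to all genes. P4ha1 (a collagen prolyl hydroxylase), Bnip3l (a mitophagy receptor), Pgf (placental growth factor) and Adm (adrenomedullin) fell, with changes of -3.04, -2.80, -2.47 and -2.33. After median ratio scaling 2 of the 17 were higher and 1 was lower.

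Markers of other cell types were read beside these results. The 10 microglia and macrophage markers summed to 92.7 and 55.5 TPM in controls and to 158 and 234 TPM with the fusion, with 3 of 9 tested higher and 2 lower; P2ry12 was listed at 0 in both fusion libraries. The 5 fibroblast markers summed to 47.6 and 123 TPM in controls and to 116 and 241 TPM with the fusion, with 1 of 5 higher. The 6 endothelial markers summed to 1.24 to 5.88 TPM in each library, with 1 of 1 tested higher, and the erythroid markers to 1.08 to 13.7 TPM, with Alas2 listed at 0 in every library. Markers of myelinating oligodendrocytes summed to 1581 and 2056 TPM in controls and to 151 and 121 TPM with the fusion, with 4 of 4 lower and Mog listed at 0 in both fusion libraries. The astrocyte markers summed to 216 and 261 TPM in controls and 22.6 and 49.3 TPM with the fusion, with 3 of 4 tested lower. Aldoc, also on the list of other glycolysis genes, gave 100 and 114 TPM in controls and 10.6 and 15.1 TPM with the fusion. The neuron markers summed to 183 and 177 TPM in controls and 46.2 and 28.4 TPM with the fusion, with 2 of 4 tested lower. Snap25 gave 135 and 132 TPM in controls and 24.7 and 8.79 TPM with the fusion. Snap25 and Tubb3 changed by -3.09 and -3.31 and were called lower, while Stmn2 and Gad1 changed by -0.12 and -0.27 and were not called. Over all tested genes 51.3% were lower and 4.95% higher. The part of these cell types in the levels of the glycolytic and hypoxia genes was not tested.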

How the data were processed

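Expression was measured by RNA-seq in 2 control and 2 fusion libraries of sorted cells. The authors deposited 1 table of TPM values per gene; per the submitters' processing notes, the tools included Trimmomatic 0.39 and Salmon 1.8.0 and the genome GRCm38 (mm10). Neither the annotation release nor the summing of transcripts is given in the sources used here. TPM keeps no read depth, so no counting interval can be given. Per the labels' protocols, full-length cDNA was made with a single-cell kit; no molecular identifiers or strand marking are stated.

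From these values, log2(TPM + 1) was compared with limma 3.58.1 in R 4.3.3, with a mean-variance trend and Benjamini-Hochberg adjustment over all 12871 genes at 1 TPM or more in at least 2 libraries; the threshold was 0.05. The fit was tested on simulated data with known changes. A gene that was not called may still differ. Where a symbol stood on several rows, the row of highest mean was used. A fold change on this scale understates the change of low genes. The 33 genes and the lists of other genes and markers were chosen with earlier results of these data known. All 33 were given with every library's values, with full statistics at least for those past the threshold with the 10 largest changes and the 5 nearest the median of all genes; from each other list up to 4 called genes with the largest change were named. Near copies were found with BLAST+ 2.17.0 on GENCODE M21 transcripts. Promoter sequences are RefSeq's on GRCm38.p6, found for 31 of the 33 genes; gene coordinates are GENCODE M21's on GRCm38. Shares within a family are given for each library without a p-value. With 2 against 2 libraries the exact 2-sided permutation test cannot go below p = 0.333. Other scalings, filters, pseudocounts, model settings, a replicate block and leaving out each library were tried. Protein sequences were not used here.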

Additional observations from a re-analysis of the deposited data

How the results depend on the processing

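As deposited, 20 of the 33 genes were lower and 0 higher; over all tested genes 6606 were lower and 637 higher. Leaving out 1 library at a time gave 2 to 23 of the 33 genes lower, 1025 to 7987 of all genes lower and 14 to 1084 higher. The low ends came from leaving out a control library, when the only spread measured was between the 2 fusion libraries. Without a fusion library it was between the 2 control libraries, so these counts cannot be set against each other. Median ratio scaling gave 11 lower and 2 higher of the 33, with 2396 and 1846 of all genes. Quantile normalization gave 14 lower and 3 higher of the 33, with 1955 and 1948 of all genes. A correction for GC content and length, chosen after seeing the data, gave 12 lower and 3 higher, with 2122 and 1813 of all genes. The number of all genes higher was 353 with no filter on low values, 405 with a mean of at least 5 TPM and 962 without mitochondrially encoded and ribosomal protein genes. The median change of the tested genes of the set, -2.53, was -1.60 with a pseudocount of 5, -0.86 with median ratio scaling, -1.34 with quantile normalization, -1.99 without mitochondrially encoded and ribosomal protein genes and -0.96 with the GC and length correction. Relative to all genes, -1.12, it was -0.64 with a pseudocount of 0.1 and -1.93 with no filter.

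Of the 70 distinct genes tested on the lists of other pathway genes, 2 were higher and 44 lower. Counts from fits that leave out 1 library have the limit given above. The number higher was 1 with a pseudocount of 0.1, a mean of at least 5 TPM, no trend, robust hyperparameters or the replicate block, 0 with no filter, 8 with median ratio scaling, 7 with quantile normalization or without mitochondrially encoded and ribosomal protein genes, and 9 with the GC and length correction; leaving out 1 library gave 0 to 7. The number lower was 28 with no filter, 19 with median ratio scaling, 18 with quantile normalization and 22 with the GC and length correction; leaving out 1 library gave 5 to 48.

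Single changes turned from lower to higher as follows. With median ratio scaling these were Slc2a3 (0.12), Hk2 (0.13), Slc16a1 (0.50), Pdk1 (0.88), Egln1 (0.31) and Ankrd37 (0.056). With quantile normalization they were Slc2a3 (0.15), Hk1 (0.10), Hk2 (0.35), Slc16a1 (0.52), Pdk1 (1.16), Egln1 (0.34), Ankrd37 (0.19) and Dld (0.0069). With the GC and length correction they were Hk1 (0.20), Hk2 (0.84), Eno1b (0.28), Pdk1 (1.20), Egln1 (0.018) and Ankrd37 (0.42). Pdk1 was 0.24 without mitochondrially encoded and ribosomal protein genes; leaving out 1 library gave Pdk1 changes of -0.44 to 0.12 and Ankrd37 changes of -3.06 to 0.48, the highest without fusion replicate 1 and the lowest without fusion replicate 2. The Hk1 share of the hexokinases (fusion minus control) ranged from -27.7 percentage points without fusion replicate 1 to 15.8 without fusion replicate 2, with 1.53 without control replicate 2. The Pfkl share of the phosphofructokinases ranged from -19.2 without fusion replicate 2 to 1.33 without fusion replicate 1. The cause of these differences was not tested.

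With the replicate number as a block, 21 of the 33 genes, and 6978 of all genes, were lower; Bnip3 was then called lower (adjusted p = 0.0272, limma) and Eloc no longer higher (adjusted p = 0.109, limma). The labels give both groups the numbers 1 and 2 only; the differences between replicates correlated at -0.04 between the groups across 12871 genes, so the numbers are not taken to pair the libraries. Read depth is unknown, which limits all values near 0.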
